A study of Mus musculus with 7 samples.

Results

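The INK4 and KIP proteins are the inhibitors that hold back the cyclin-dependent kinases of the cell cycle. Here 6 of their genes, Cdkn1b, Cdkn1c, Cdkn2a, Cdkn2b, Cdkn2c and Cdkn2d, were followed in mouse incisor tissue from the labial cervical loop, an epithelial niche whose stem cells renew the enamel-forming layer of a tooth that never stops growing. They are 6 of the 18138 gene symbols in the deposited intensity table, and every probe that carries one of these symbols was taken, with Cdkn1a left out. That gave 10 of 25697 probes, of which 7, from 5 of the 6 genes, were detected well enough to be tested among 14666 tested probes.

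Total RNA from 3 control and 4 mutant samples of isolated loops was measured on 7 Illumina expression arrays, 1 per sample. Control mice were Yap/Taz f/f, that is, they carried loxP-flanked alleles of Yap and Taz. Mutant mice were K14CreER;Yap/Taz f/f, with a tamoxifen-inducible Cre under the keratin 14 promoter, which is active in the dental epithelium and not in the mesenchyme. Both groups received 5 mg of tamoxifen on each of 2 consecutive days at 8 weeks of age, and tissue was taken 48 hours after the last dose. No control carried the Cre, so effects of Cre itself cannot be told apart from those of losing Yap and Taz. The labels number the samples without naming the animals behind them, and p-values therefore cover the spread among these samples, which may be technical. Controls 1 and 2 shared the first BeadChip with mutants 1 and 2, and control 3 shared the second with mutants 3 and 4. The arrays detected 13767 to 14752 probes each, and the median probe was read from 31 to 38 beads. Of 9 epithelial markers 7 passed the detection filter, namely Krt14, Krt5, Cdh1, Trp63, Sox2, Sfrp5 and Dsp, as the labelled tissue should show.

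As background, the INK4 proteins (p16, p15, p18 and p19, from Cdkn2a, Cdkn2b, Cdkn2c and Cdkn2d) bind Cdk4 and Cdk6 and keep them from pairing with D cyclins, which leaves the retinoblastoma protein active and the cell in G1. The KIP proteins p27 (Cdkn1b) and p57 (Cdkn1c) instead clasp whole cyclin and kinase complexes, chiefly those of Cdk2 with cyclin E or A. Cdkn2a also encodes ARF, an activator of p53 that is read in another frame. YAP and TAZ are co-activators that favour proliferation, and in many epithelia cell cycle exit is marked by a rise of Cdk inhibitors.

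Cdkn2b and Cdkn2a lie side by side on chromosome 4, and of these neighbours Cdkn2b alone was measured above background here, so the stretches that precede their start sites are shown. Each line gives the 250 bases before a RefSeq start site of GRCm38.p6, in the direction of the gene, and the 2 starts of Cdkn2a are those of its ARF and p16 transcripts. Capitals mark a match, on either strand, to TGACGTCA (the cAMP response element) or GGGCGG (the GC box). No marked matches overlap.
Cdkn2b, chr4:89311033-89311282, minus strand: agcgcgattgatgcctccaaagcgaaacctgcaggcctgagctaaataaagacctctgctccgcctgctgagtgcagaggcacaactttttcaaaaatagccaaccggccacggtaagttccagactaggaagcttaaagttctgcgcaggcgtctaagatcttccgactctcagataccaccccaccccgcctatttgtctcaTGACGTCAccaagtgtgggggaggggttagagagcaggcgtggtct
Cdkn2a ARF start, chr4:89294620-89294869, minus strand: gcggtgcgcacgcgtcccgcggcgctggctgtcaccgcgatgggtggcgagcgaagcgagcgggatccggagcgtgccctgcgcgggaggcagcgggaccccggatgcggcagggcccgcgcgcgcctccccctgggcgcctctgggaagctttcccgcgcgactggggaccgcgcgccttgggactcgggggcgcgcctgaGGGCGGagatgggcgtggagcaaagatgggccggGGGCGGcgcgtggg
Cdkn2a p16 start, chr4:89282193-89282442, minus strand: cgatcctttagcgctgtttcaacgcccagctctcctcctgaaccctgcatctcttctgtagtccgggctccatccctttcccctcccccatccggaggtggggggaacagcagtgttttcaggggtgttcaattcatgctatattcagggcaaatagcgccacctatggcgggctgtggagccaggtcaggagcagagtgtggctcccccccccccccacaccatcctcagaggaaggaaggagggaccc

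The Cdkn2b stretch holds 1 cAMP response element, whose last base lies 39 bases before the start site and which 1.55% of the 32851 RefSeq windows of the same length hold. The ARF start has 2 GC boxes, a motif found in 32.7% of windows, and the p16 start has none of the marked motifs. GGAATG, the core letters bound by the TEAD partners of YAP and TAZ, are absent from all 3 stretches and occur in 12.6% of windows. They are also absent from the windows found for Cdkn1b, Cdkn2c and Cdkn2d, which says nothing of TEAD binding there or elsewhere. The short SMAD motif GTCTG, present in 42.2% of windows, occurs 1 time before Cdkn2b and not before either Cdkn2a start, and the full palindrome GTCTAGAC, present in 0.167% of windows, in none of the 3. The Cdkn2b stretch has a GC content of 53.6% and the ARF stretch 78.4%, against a median of 52.4% over all windows. A match is a description of letters and not of a bound site.

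Cdkn2b was the 1 inhibitor gene whose mutant arrays all lay above the control arrays. Cdkn2b (chromosome 4, 89306289 to 89311032 in GRCm38.p6) encodes p15, the INK4 protein that TGF-beta induces in epithelial cells. Its single probe had a deposited intensity of 93.8, 90.7 and 89.4 in control replicates 1 to 3, with bead standard errors of 2.53, 2.67 and 1.96. In mutant replicates 1 to 4 the intensity was 108, 109, 113 and 109.9, with bead standard errors of 3.88, 2.97, 3.15 and 3.29. The lowest mutant array thus stood above the highest control array before any normalization, and the 2 groups did not overlap. The arrays themselves differed in brightness, with median probe intensities of 80.8 to 85.6 in control and 82.8 to 86.2 in mutant arrays. How many of all probes separate on this scale was not counted. On normalised values, 3.28% of all tested probes had every mutant array above the controls. The probe was detected on 7 of 7 arrays, with detection p-values from 0 to 0.00501.

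After background correction and quantile normalization, Cdkn2b had log2 intensities of 5.25, 5.13 and 4.72 in the control arrays and 5.66, 5.47, 5.50 and 5.50 in the mutant arrays. The groups again did not overlap, and control replicate 3, the control array of the second chip, was the lowest. Control arrays averaged 5.03 ± 0.28 (SD, n = 3), and mutant arrays averaged 5.53 ± 0.086 (SD, n = 4). With the chip as a term, the log2 difference was 0.54 (SE 0.12, 95% interval 0.29 to 0.79), or a 1.45-fold higher level with an interval of 1.22 to 1.73. It ranked 19 of 14666 probes by p and did not pass the threshold (limma adjusted p = 0.167). An exact two-sided permutation of the group means over the 35 possible splits, which ignores the chip, gave p = 0.0286. That is the smallest these splits can give, and it is not adjusted for the 7 member probes. It requires groups that do not overlap, which held for 6.55% of all tested probes in either direction. Within the first chip the mutant arrays stood 0.38 higher and within the second 0.78 higher, and the contrast between chips did not pass either (0.41, SE 0.24, limma adjusted p = 0.999).

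The Cdkn2b difference kept its sign in all 19 processing alternatives and passed the threshold in 0 of them. Several of the alternatives could not have reversed it. The detection filters and eBayes options leave the estimate at 0.54. With groups that do not overlap, leaving out arrays or the chip term cannot turn the sign. The replicate block gave the same estimate as leaving out mutant replicate 4, so the alternatives are not independent. The limma adjusted p of Cdkn2b ran from 0.0515 with median scaling to 0.704 on the first chip alone. With median scaling the median difference of all tested probes was 0.068, against 0.00031 in the reported fit. Leaving out 1 array at a time gave differences of 0.38 to 0.63. The smallest of these came without control replicate 3, which leaves the difference of the first chip. The log2 difference was 0.21 without background correction, 0.28 with a larger offset and 0.19 in the series matrix values, scales on which dim probes are compressed. The authors' deposited table gives Cdkn2b group means of 6.54 in control and 6.73 in mutant on its log2 scale and a q-value of 0.0618. It counts the probe as detected on 16 arrays, more than the 7 given here.

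**Figure D1:**
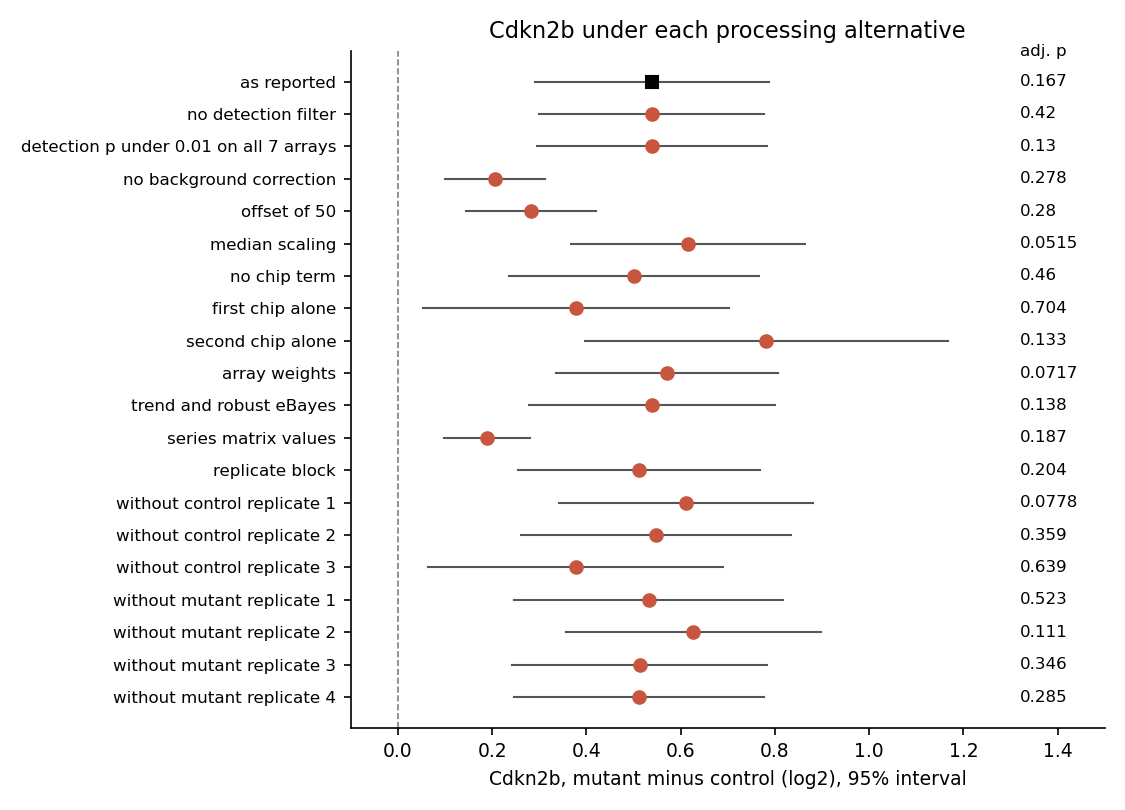
Log2 difference of Cdkn2b, mutant minus control, with its 95% interval, as reported (square) and under each of 19 processing alternatives (circles), with the limma adjusted p at the right. All differences lie above 0, between 0.19 and 0.78, and no adjusted p is below 0.0515. The alternatives share arrays and are not independent, and several could not reverse the sign.

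The neighbouring Cdkn2a (chromosome 4, 89274473 to 89294619), which encodes p16 and ARF, was not detected. Its first probe had intensities of 77.1, 74.5 and 78.6 in control and 78.4, 78.0, 81.0 and 79.7 in mutant arrays, and its second probe 76.2, 72.7 and 78.9 in control and 76.4, 75.9, 79.5 and 77.1 in mutant arrays. Both probes were detected on 0 of 7 arrays, with detection p-values of 0.117 to 0.560 and 0.247 to 0.810. Not well above background in either genotype, Cdkn2a gives no fold change, and the array cannot tell a low level from none. The sources used here do not say which of its 2 transcripts each probe reads.

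**Figure D2:**
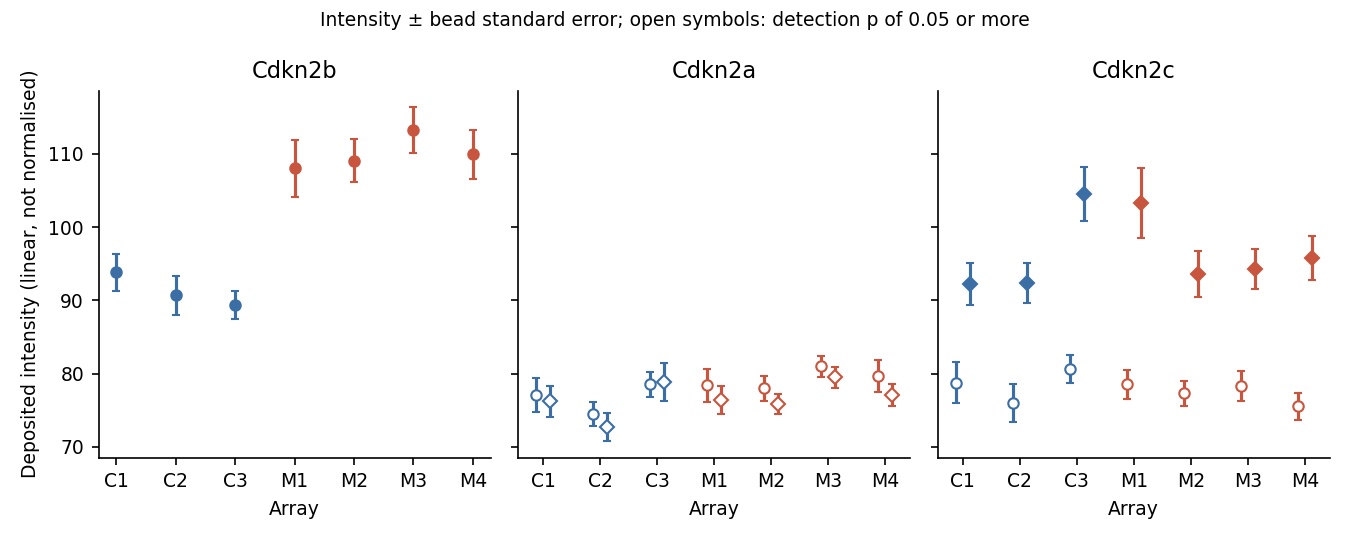
Deposited linear intensity of every probe of Cdkn2b, Cdkn2a and Cdkn2c on control arrays C1 to C3 (blue) and mutant arrays M1 to M4 (red), with bars for the standard error of the beads of that array. Symbol shapes mark different probes of a gene and open symbols mark arrays where the probe was not detected. The 4 mutant arrays of Cdkn2b sit between 108 and 113, all above the controls, while both Cdkn2a probes and 1 Cdkn2c probe have open symbols on every array.

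Cdkn2c (chromosome 4, 109660876 to 109666756) encodes p18, an INK4 protein that opposes cell cycle entry in many lineages. The log2 intensity of its detected probe was 5.17, 5.21 and 5.34 in control arrays and 5.52, 4.92, 4.88 and 5.00 in mutant arrays. Mutant replicates 2, 3 and 4 lay below all controls, while mutant replicate 1 lay above them, so the groups overlapped. The log2 difference was -0.14 (SE 0.14, 95% interval -0.43 to 0.15, limma adjusted p = 0.833), at 0.027 within the first chip and -0.40 within the second. Without mutant replicate 1 the difference was -0.33. A second Cdkn2c probe was detected on 0 of 7 arrays, at intensities of 75.5 to 80.6.

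Cdkn2d (chromosome 9, 21288459 to 21291421) encodes the INK4 protein p19. Its log2 intensity was 7.21, 6.85 and 7.06 in control arrays and 6.93, 6.72, 7.12 and 7.01 in mutant arrays. The groups overlapped, and mutant replicate 2 was the lowest array. The log2 difference of -0.12 (SE 0.12, 95% interval -0.37 to 0.14, limma adjusted p = 0.843) did not pass, and it turned to 0.0061 with median scaling. Changes of Cdkn2d larger than 1.10-fold upward or 0.774-fold downward lie outside this interval.

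The 2 KIP genes were detected on every array and did not pass the test. Cdkn1b (chromosome 6, 134920401 to 134925525) encodes p27, an inhibitor that accumulates in resting cells and is destroyed through the ubiquitin ligase subunit Skp2. Its brightest probe had log2 intensities of 6.91, 7.16 and 7.35 in control and 7.37, 7.14, 7.18 and 7.09 in mutant arrays. The groups overlapped fully, and control replicates 1 and 3 were the lowest and nearly the highest array. The log2 difference was 0.046 (SE 0.12, 95% interval -0.21 to 0.31, limma adjusted p = 0.952).

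A second Cdkn1b probe gave 5.90, 6.06 and 6.28 in control and 6.22, 6.15, 6.18 and 5.84 in mutant arrays, and the dimmest gave 4.58, 4.84 and 4.65 in control and 4.602, 4.635, 4.73 and 4.76 in mutant arrays. The groups overlapped on both. Their log2 differences were 0.015 (SE 0.13) and -0.020 (SE 0.11), with adjusted p-values of 0.987 and 0.978. The 2 brighter probes had the same pattern over the chips, at 0.22 and 0.21 within the first and -0.22 and -0.27 within the second, and the dim probe the opposite signs, at -0.094 and 0.090. The difference between the chips did not pass for any of them (limma adjusted p = 0.999). The intervals of the 3 probes together span 0.837-fold to 1.24-fold.

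Cdkn1c (chromosome 7, 143458339 to 143461059) encodes p57, is expressed from the maternal allele only, and is linked to cell cycle exit during development. Its log2 intensity was 7.24, 6.94 and 7.22 in control arrays and 6.80, 6.77, 7.30 and 7.37 in mutant arrays. The mutant arrays of the first chip lay below all controls and those of the second chip above them, so the groups overlapped. The log2 difference of -0.14 (SE 0.12, 95% interval -0.39 to 0.12, limma adjusted p = 0.816) did not pass and combined -0.31 within the first chip with 0.12 within the second. The mutant SD of 0.32 exceeded the control SD of 0.17.

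**Figure D3:**
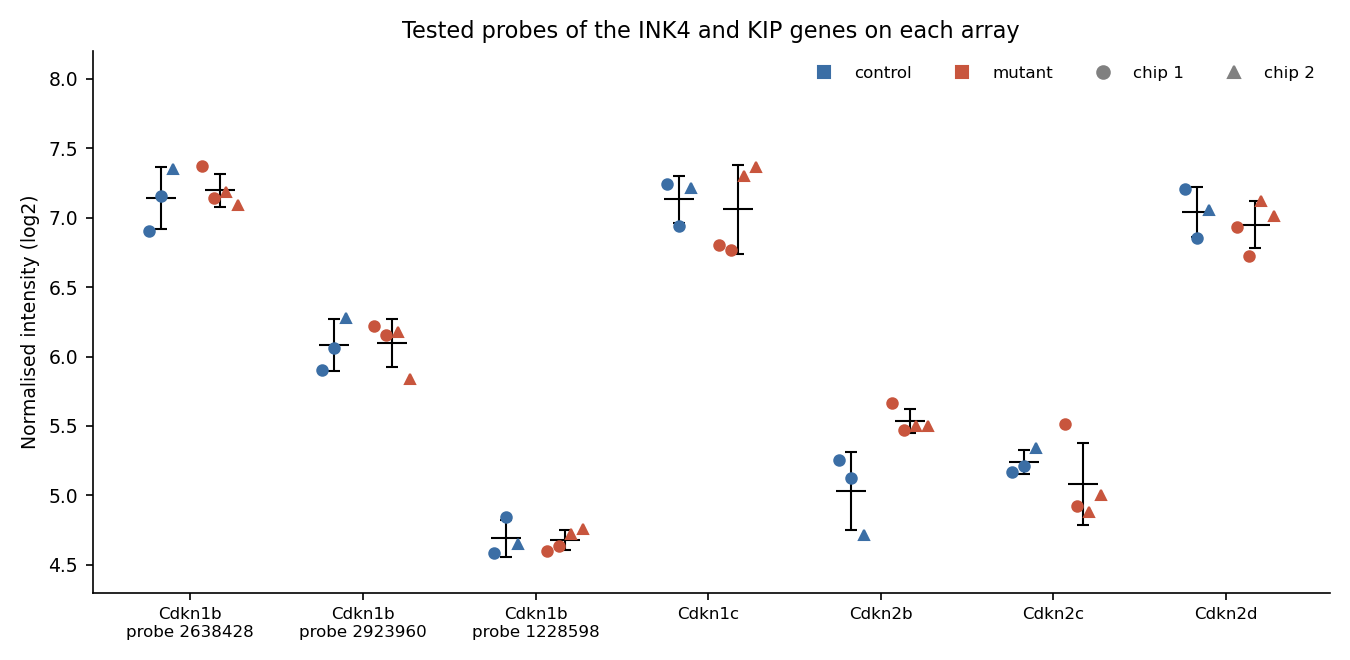
Normalised log2 intensity of the 7 tested probes on each array, with control arrays in blue, mutant arrays in red, circles for the first chip and triangles for the second. Horizontal bars are group means and vertical bars SDs (n = 3 and n = 4), and levels of different probes are not comparable. The genotypes separate for Cdkn2b and overlap for the other 6 probes.

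Across the family, 0 of 7 tested probes passed the adjusted threshold, where 9 of all 14666 probes did (0.0614%, with 0.0341% higher and 0.0273% lower). At an unadjusted p under 0.05 limma gave 1 of the 7 probes, Cdkn2b, against 7.99% of all probes, of which 4.32% were higher and 3.67% lower. All mutant arrays lay above all control arrays for 1 of 7 probes, against 3.28% of all probes, and below them for 0 of 7, against 3.27%, or 6.55% in either direction. The tested member probes had 3 positive and 4 negative differences, against 50.1% positive over all, and a median of -0.020 beside 0.00031. These shares count the probes that passed the detection filter and leave out the 3 that did not.

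**Figure D4:**
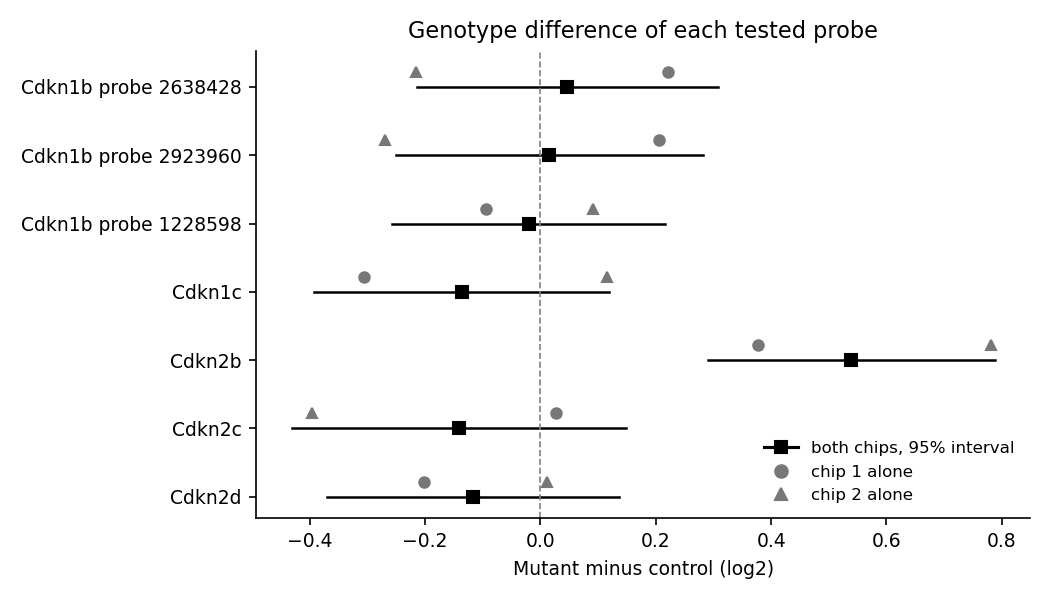
Log2 difference, mutant minus control, of each tested probe with its 95% interval (squares and lines), beside the difference on each chip alone (grey circles and triangles). The Cdkn2b interval lies above 0 and the other 6 intervals include it, with chips of opposite sign for every probe but Cdkn2b.

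Cdkn1a, the p53-induced p21 that belongs to the same family as the KIP genes, is set beside them only for scale. Its brightest probe measured 6.08, 6.17 and 5.97 in control and 6.83, 6.66, 6.30 and 6.39 in mutant arrays, without overlap. The log2 difference of that probe was 0.52 (SE 0.11, limma adjusted p = 0.161). Another Cdkn1a probe differed by 0.51 (SE 0.11, limma adjusted p = 0.175), also without overlap. The dimmest, detected on 3 arrays, differed by 0.031 (SE 0.11, limma adjusted p = 0.964), and its groups overlapped. Mutant arrays all lay above the controls for 3.28% of all tested probes.

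The kinases and cyclins that the inhibitors bind gave no called gene. Of the INK4 partners, 4 of 5 were tested, with 1 positive and 3 negative differences and a median of -0.034, and Cdk4 had no probe under its symbol. Ccnd1 and Ccnd2, the D cyclins that open G1, differed by -0.0092 (SE 0.11), with other Ccnd1 probes at 0.13 and 0.11, and by 0.071 (SE 0.12), and the kinase gene Cdk6 by -0.14 (SE 0.12). Of the KIP partners, 4 of 7 were tested and all 4 differences on the brightest probes were negative, with a median of -0.16 and 0 called. Other probes did not all share that sign, at -0.14, 0.060 and 0.014 for Cdk2 and 0.052 for Cdk1. Cdk2 was at -0.074 without mutant replicate 1, and Ccne2 at -0.062 without mutant replicate 4. The brightest probes gave the kinase genes Cdk2 at -0.18 (SE 0.12) and Cdk1 at -0.16 (SE 0.13), and the cyclin genes Ccne2 at -0.16 (SE 0.13) and Ccna2 at -0.064 (SE 0.13). Pocket proteins with E2F and DP factors, which the kinases act on, had 12 of 13 tested, 5 positive and 7 negative, with Rb1 at 0.089 (SE 0.11) and its relative Rbl2 at 0.20 (SE 0.12) on one probe and -0.15 on another. Proliferation markers had 25 of 28 tested, with 20 negative and 5 positive, a median of -0.084, 0 called and 4 at an unadjusted p under 0.05, all of them negative. The mitotic kinesin genes Kif2c and Kif11 differed by -0.57 (SE 0.16) and -0.35 (SE 0.14), and the survivin gene Birc5 by -0.30 (SE 0.12). Mutant replicate 4 had the lowest mean of these markers, 0.32 below the controls, and mutant replicate 3 stood 0.047 above them. Among 18 alternatives Kif2c passed in 2, on arrays of the second chip by themselves (-0.95, limma adjusted p = 0.0374) and when control replicate 1 was left out (-0.76, limma adjusted p = 0.0442).

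Genes known to set the level of the inhibitors were likewise not called. For p27 turnover, 12 of 14 genes were tested, 5 positive and 7 negative, with a median of -0.017. Skp2 differed by -0.12 (SE 0.14), its cofactor gene Cks1b by -0.055 (SE 0.11), and Ddb1, an adaptor of another ubiquitin ligase, by -0.38 (SE 0.13, limma adjusted p = 0.458). Regulators of the Ink4-Arf locus, most of them Polycomb proteins that silence it, had 20 of 23 tested, with 8 positive and 12 negative and a median of -0.059. Suz12 and Cbx2, subunits of Polycomb complexes, differed by -0.26 (SE 0.12) and -0.24 (SE 0.11), Bmi1 by 0.12 (SE 0.14) and Ezh2 by -0.048 (SE 0.14) with other probes at 0.25 and -0.050, while the repressor gene Zbtb7a differed by 0.29 (SE 0.11). Regulators of KIP and Cdkn2b transcription had 17 of 21 tested, with 7 positive and 10 negative and a median of -0.028. Foxo1, a factor that drives Cdkn1b when AKT is low, differed by -0.45 (SE 0.12, adjusted p = 0.317). All its mutant arrays lay below the controls, as for 3.27% of all tested probes. Over 18 alternatives the Foxo1 difference ran from -0.57 to -0.14, and it was not called. Smad3, a mediator of TGF-beta, differed by -0.30 (SE 0.12), Myc, a repressor of Cdkn2b, by -0.24 (SE 0.14), and Sp1 by 0.27 (SE 0.14). A second Myc probe was at -0.030, and without mutant replicate 1 Myc was at -0.093 and Sp1 at 0.096. In the ARF and p53 list all 7 genes were tested, 3 positive and 4 negative. Cdkn2aip, a binding partner of ARF, differed by -0.25 (SE 0.11), also with all mutant arrays below the controls. Mdm2, the ubiquitin ligase that ARF blocks, differed by 0.12 (SE 0.11). Mtap, the gene next to the Cdkn2a locus, differed by -0.13 (SE 0.12), with a second probe at -0.22.

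**Figure D5:**
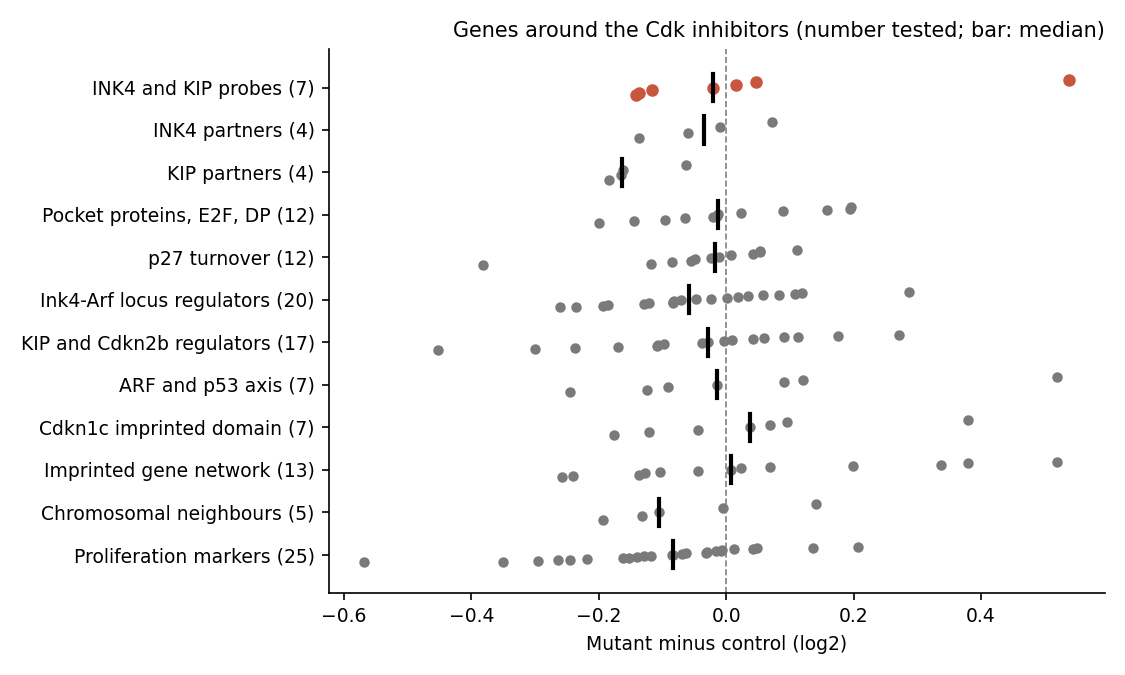
Log2 difference, mutant minus control, of the 7 inhibitor probes (red) and of the tested genes of 11 lists around them (grey, 1 probe per gene), with black bars at the medians. Cdkn2b is the inhibitor probe at the far right, and the list medians lie between -0.16 and 0.037.

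Summed marker levels of each cell type are given beside Cdkn2b, and the sums of control and mutant arrays overlapped for every list. A sum is led by its brightest gene, and the mean log2 level of the dental mesenchyme markers, relative to the controls, did not overlap, at -0.056 to 0.057 in control and 0.11 to 0.39 in mutant arrays. The 7 epithelial markers summed to 2993 to 3026 of normalised intensity in control and 2898 to 3179 in mutant arrays, with overlap, and 6 of the 7 had negative differences. Of 7 ameloblast markers 3 were tested, and Mmp20 and Klk4 were detected on no array. The summed normalised intensity of the 3 was 376 to 465 in control and 430 to 1132 in mutant arrays. All 3 had positive differences at an unadjusted p under 0.05, with a median of 0.90 and 0 called by limma. The enamel matrix genes Enam (0.90, SE 0.18, adjusted p = 0.139) and Ambn (1.12, SE 0.24, adjusted p = 0.161), named after their values were seen, did not overlap between the groups. Amelx, the third tested gene of the list, did overlap (0.46, SE 0.17). Separation with the mutant arrays higher held for 3.28% of all tested probes. Of the odontoblast and osteoblast markers 7 of 10 were tested, and Dmp1 was detected on no array. Their sums were 240 to 325 in control and 251 to 536 in mutant arrays. Differences were positive for 6, 3 of them at an unadjusted limma p under 0.05, but the list median was only 0.038. Of these markers Col1a1, a collagen gene of bone and dentin also named after its value was seen, did not overlap (1.26, SE 0.27, limma adjusted p = 0.157). The collagen gene Col1a2 of the same list differed by 0.0058 (SE 0.12). Of the macrophage and leukocyte markers 8 of 11 were tested, and Fcer1g and Cd14 were detected on no array. All 8 had positive differences, and the sums were 278 to 374 and 331 to 468. Among them Lyz2, the myeloid lysozyme, was called (0.75, SE 0.12, limma adjusted p = 0.0445). That call held in 7 of 18 alternatives, over which the adjusted p ran from 0.00575 to 0.420, and a second Lyz2 probe differed by 0.27 (limma adjusted p = 0.539). Dental mesenchyme markers, 5 of 10 tested and all positive, gave 413 to 523 and 497 to 542. Twist1, Msx1, Pdgfrb and Postn were detected on no array. Endothelial markers, 2 of 8 tested, gave 39.0 to 41.6 and 40.5 to 43.3, with Pecam1, Kdr, Tek, Eng and Emcn detected on no array. Schwann cell markers, 4 of 8 tested and all positive, gave 433 to 508 and 451 to 546, with S100b and Cdh19 detected on no array. The 2 of 4 erythroid markers tested gave 37.5 to 66.5 and 39.4 to 57.4, with Slc4a1 detected on no array. Among the mutants, Cdkn2b was highest in mutant replicate 1 and nearly level in the other 3. By mean log2 level, the dental mesenchyme markers were also highest in mutant replicate 1, at 0.39, with 0.12, 0.11 and 0.28 in replicates 2 to 4. The ameloblast, odontoblast and macrophage lists were highest in mutant replicate 4 and lowest in mutant replicate 2. The epithelial, endothelial and Schwann cell lists were highest in mutant replicate 2 and the erythroid list in mutant replicate 3. The part of these cells in the Cdkn2b difference was not tested, and in bulk tissue more cells of a type and more RNA per cell cannot be told apart.

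By the root mean square difference of the 7 array values, each less its own mean, the gene nearest to Cdkn2b among 10039 candidates was Bbc3, the p53 target PUMA, at 0.078 on the log2 scale against a median of 0.33 over all candidates. Bbc3 itself differed by 0.52 (SE 0.11, limma adjusted p = 0.161). It stayed nearest with median scaling and ranked 44 with the larger offset and 614 without background correction. A second Bbc3 probe differed by 0.16 (adjusted p = 0.764), and the next gene in order was Krtap16-3 at 0.13. For Cdkn1b the nearest genes were Fam210a at 0.046 and Fbxo16 at 0.049, and Fam210a ranked 84 to 122 in the same 3 settings. Cdkn1c was nearest to Marcksl1 (0.048) and Lasp1 (0.061), Cdkn2c to Heph (0.071) and Ring1 (0.075), and Cdkn2d to Upf1 (0.033) and Wdr78 (0.034), whose first-named genes ranked 1 to 10 there. These are descriptions over 7 arrays that share chip and genotype, with no test.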

How the data were processed

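Each sample gave 1 array, and the identifiers in the labels place each on a chip. The deposited intensity values are bead means per probe that were not normalised, per the file headers, with a detection p-value against the array's negative controls, a bead standard error and a bead number, 4 deposited values per array. The authors also deposited log2 values, per the name of the deposited table adjusted with ComBat for the array ID, which form the series matrix too, and a fold score with a q-value per probe for 17174 probes. No source used here names the summarising software.

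Background was corrected here with limma 3.58.1 in R 4.3.3 (normal-exponential convolution, negative controls inferred from detection p-values, offset 16), followed by quantile normalization and log2. Probes with a detection p under 0.05 on at least 3 arrays entered 1 linear model over the 7 arrays (lmFit, eBayes) with terms for genotype and chip, and were adjusted by the Benjamini-Hochberg method over all 14666 tested probes at a threshold of 0.05. Group means and SDs are of the values without the chip term. Lists used 1 tested probe per gene, the brightest, with older symbols matched through RefSeq names of GRCm38.p6. Promoter sequences are RefSeq's. Coordinates are those of RefSeq genes, not of probes. The RefSeq accessions in the deposited table were of the same gene for the 8 member probes it lists.

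The members and lists were chosen with earlier results of these data known. The text gives every member probe, and by rule it may name up to 4 genes of smallest p in a pathway list and a fixed set of Cdkn1a, Ccnd1, Ccnd2, Cdk4, Cdk6, Cdk2, Rb1, Rbl2, Skp2, Cks1b, Bmi1, Ezh2, Foxo3a, Phlda2, Slc22a18, H19, Igf2 and Mtap. Of these, Foxo3a and Slc22a18 did not pass the detection filter. Of the cell type markers, 2 are not reported here and are left out of their lists' counts and sums. The code of the fit was run on data simulated from the same model with independent normal noise, which does not test that model. Alternatives were the filter, background, offset, scaling, chip term, array weights, eBayes options, series matrix values, a replicate block and leaving out each array.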

Additional observations from a re-analysis of the deposited data

Results flagged for a closer look

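Among the 4 mutant arrays, Cdkn2b was highest in mutant replicate 1, at a log2 intensity of 5.66. The other 3 mutant arrays lay between 5.47 and 5.50, so that its gap to the next array took up 0.84 of the range of the group, above Dixon's critical value for 4 samples. It was the 1 such case among the mutant groups of 41 probes examined, where chance gives about 1 in 20. Without mutant replicate 1 the Cdkn2b difference was 0.53 (SE 0.13, limma adjusted p = 0.523).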

How the results depend on the processing

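In 19 alternatives, 0 of the tested inhibitor probes were called. The dimmest Cdkn1b probe had a value in 18 of them, since it failed the stricter detection filter. Cdkn2b kept its sign in all 19, several of which could not reverse it, with 0.78 on the second chip alone. The other 6 probes turned sign somewhere, and the cause was not tested. On the second chip alone the 3 Cdkn1b probes gave -0.22, -0.27 and 0.090, Cdkn1c 0.12 and Cdkn2d 0.011, and on the first chip alone Cdkn2c gave 0.027. Median scaling gave 0.0085 for the dim Cdkn1b probe and 0.0061 for Cdkn2d, where the median of all tested probes was 0.068. Array weights gave -0.0057 and -0.0075 for the brighter Cdkn1b probes, and the series matrix values -0.0030 for the second of them. With each array left out in turn, the Cdkn1b probes ranged from -0.061 to 0.22, from -0.071 to 0.21 and from -0.094 to 0.063, Cdkn2c from -0.33 to 0.027, Cdkn1c from -0.31 to -0.018 and Cdkn2d from -0.20 to -0.0060. The values of Cdkn1c and Cdkn2d nearest to 0 came without control replicate 1.

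Among list genes, median scaling turned Ccnd1 (0.11), Cks1b (0.077), Ezh2 (0.075) and H19 (0.081), and Bbc3 passed there at 0.64 (limma adjusted p = 0.0329). In that setting all 9 probes called over the whole array were higher, and the median difference of all tested probes was 0.068. The second chip alone turned Ccnd1 (0.048), Ezh2 (0.076) and H19 (0.073), and the first chip alone Bmi1 (-0.15), Cdk1 (0.012) and Phlda2 (-0.011). Array weights turned Ezh2 (0.014) and H19 (0.00040), the series matrix values H19 (0.0013), and the fit without the chip term H19 (0.021). Leaving out single arrays moved Ccnd1 from -0.048 to 0.042, Cdk1 from -0.26 to 0.012, Skp2 from -0.22 to 0.00048, Bmi1 from -0.15 to 0.24, Ezh2 from -0.17 to 0.049, H19 from -0.15 to 0.10 and Phlda2 from -0.011 to 0.11.

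The number of probes called over the whole array, 9 in the reported fit, was 0 without the detection filter (1909 at an unadjusted p under 0.05), 0 without background correction (1274), 0 with the offset of 50 (1284) and 0 in the series matrix values by limma (1621). It was 1 on the first chip alone and 14 on the second, and 0 to 14 with arrays left out. Leaving out control replicate 2 gave 0 (1041 unadjusted), as did mutant replicate 1 (1022) and mutant replicate 3 (1194). Control replicate 3 gave 1, mutant replicate 4 gave 2, mutant replicate 2 gave 9 and control replicate 1 gave 14. Called genes of the pathway lists numbered 0, and 1, Kif2c, with the second chip alone or control replicate 1 omitted, so 0 to 1 with arrays left out.

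With the replicate block in place of the chip, Cdkn2b differed by 0.51 (limma adjusted p = 0.204), 6 probes of the whole array were called, and Ezh2 (0.049) and Skp2 (0.00048) turned sign. The labels do not say that the numbers pair samples, and the numbers were not taken to do so. Same-numbered arrays of the 2 genotypes correlated in their deviations at -0.019, 0.155 and 0.153. Control replicates 2 and 3 correlated best with the mutants of their own number, and control replicate 1 with mutant replicate 4. Same-numbered arrays also shared a chip, so these correlations cannot settle the pairing. On the second chip alone, 1 control array is assumed to vary like the others. Signals of Cdkn2a and of 1 Cdkn2c probe lay too close to background to be compared, and 7 arrays limit the precision. List genes that also failed the detection filter of p under 0.01 on all 7 arrays, Kif2c among them, have no value under it.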

Other observations

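Imprinted genes, the class to which Cdkn1c belongs, had values in both directions. In the domain around Cdkn1c, 7 of 13 genes were tested, 4 positive and 3 negative, with a median of 0.037 and 0 called. Igf2, the growth factor expressed from the paternal allele, had a log2 difference of 0.38 (SE 0.16, limma adjusted p = 0.556), made up of 0.22 within the first chip and 0.62 within the second, beside -0.043 (SE 0.14) for H19, the non-coding RNA that shares its enhancers, and 0.069 (SE 0.11) for Phlda2, a growth-restraining gene. In a wider set of imprinted genes, 13 of 15 were tested, 7 positive and 6 negative, again with 0 called. Mest differed by -0.24 (SE 0.11) on its brightest probe and by -0.34 and -0.29 on its other probes, and Dlk1, a Notch-related membrane protein, by -0.26 (SE 0.12). Of 10 chromosomal neighbours of the inhibitor genes 5 were tested, 1 positive and 4 negative, with a median of -0.10 and 0 called. Ap1m2 differed by -0.19 (SE 0.11) with other probes at -0.26 to -0.11, and Faf1 by 0.14 (SE 0.12) with other probes at -0.17 and 0.15.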
